A study of Mus musculus with 40 samples.

Results

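DNA methylation was measured at 25 CpGs of Irs1 in mouse liver, of 300 CpGs measured in the series. They were chosen by gene, without use of their values, and fell into 2 PCR products in the first exon, with 15 CpGs in the 5′ UTR and 10 CpGs in the coding sequence. The samples were livers of 40 male C57BL/6J mice, killed at 9 weeks of age, and the 4 groups combined the diet of the dam with that of the offspring after weaning. LL animals were born to dams fed the low-fat diet (LF) and ate the LF diet themselves, HL animals were born to dams fed the high-fat diet (HF) and ate the LF diet, LH animals were born to LF dams and ate the HF diet, and HH animals had HF dams and the HF diet. The dams' diet lasted from before mating until weaning, so it covered gestation and lactation together, and males of the same cage were divided between both post-weaning diets. Litters are not marked in the labels, so p-values treat the animals as independent. Values were present for 39 animals, 10 in each group except HL, in which 9 had values and replicate 1 was not analysed here.

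Irs1 encodes insulin receptor substrate 1, a docking protein that the activated receptors for insulin and for IGF1 phosphorylate on tyrosines, after which it recruits phosphoinositide 3-kinase and passes the signal on to AKT. In hepatocytes it shares the task with IRS2, and the pathway restrains glucose output and promotes glycogen and lipid synthesis. Methylation of cytosine at CpGs is usually sparse around active promoters rich in CpG and dense within the bodies of genes, and bisulfite sequencing reads a methylated cytosine as C and an unmethylated cytosine as T.

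Irs1 (ENSMUSG00000055980.2 in the GENCODE M1 annotation, 1 transcript) lies on the minus strand at chr1:82229676-82287991 of build NCBIM37, which is the mm9 assembly. Its exon 1, at chr1:82283352-82287991, holds the whole 5′ UTR of 923 bases and the whole coding sequence of 1231 codons, while exon 2, at chr1:82229676-82234179, lies in the 3′ UTR. The 5′ UTR amplicon was 237 bp long, at chr1:82287290-82287526, and its CpGs lay 494 to 676 bp downstream of the transcript start and 247 to 429 bases upstream of the start codon. The coding amplicon was 227 bp long, at chr1:82285657-82285883, and its CpGs lay 2134 to 2235 bp downstream of the transcript start, in codons 404 to 438. The GC content was 62.4% in the 5′ UTR amplicon and 57.7% in the coding amplicon, with 6.33 and 4.41 CpGs per 100 bases and an observed to expected CpG ratio of 0.649 and 0.531. Every CpG of both amplicons had values.

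The primers of the study define what was read, and all 4 matched the bisulfite-converted plus strand with 0 mismatches and no CpG in their sites, so no primer covered a cytosine whose methylation was measured. They are shown 5′ to 3′, with capitals for the bases that differ from the unconverted genome.
5′ UTR, forward (chr1:82287290-82287314): gTagtgggtTtagggtgagtgTagT
5′ UTR, reverse (chr1:82287501-82287526): cccctAcccaaAAatatttaatttAc
coding exon, forward (chr1:82285657-82285682): aaggtggaggTtTTTttgTTaTTTat
coding exon, reverse (chr1:82285859-82285883): AActccacttcaAactAtctcttcc

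CpGs were numbered within each region from the lowest chromosome coordinate, so CpG 1 lies farthest from the transcript start. The sequences that follow are plus strand of NCBIM37 with each CpG in capitals. They show the CpGs of lowest and highest mean level in each region, a stretch of the coding exon in which the level changed sharply between neighbours, and a run of 4 adjacent CpGs in the 5′ UTR.
coding CpG 10, lowest in the coding exon, preceded by CpG 9 (chr1:82285847-82285868): tagagCGcctCGggaagagaca
coding CpG 1, highest in the coding exon (chr1:82285746-82285767): ggtgacactgCGgaaggaactt
coding CpGs 7 to 9 (chr1:82285829-82285856): aacCGgacaCGgaagcactagagCGcct
5′ UTR CpG 4, lowest in the 5′ UTR, between CpGs 3 and 5 (chr1:82287384-82287405): CGcccctggtCGagtcCGatgt
5′ UTR CpG 1, highest in the 5′ UTR, followed by CpG 2 (chr1:82287305-82287326): tgagtgcagcCGcaatcttcCG
5′ UTR CpGs 9 to 12 (chr1:82287441-82287468): gctctctaggCGCGCGCGccttccctcc

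The sequencing depth differed strongly between both regions. Total reads over all CpGs ranged from 1530126 to 15531697 per animal. In the coding exon the median number of reads per CpG in an animal ranged from 2315 to 25538.5, with a median over animals of 9566.5, and all 39 animals had values at all 10 CpGs. In the 5′ UTR it ranged from 114 to 1640, with a median of 308. The 5′ UTR had a value in 35 animals, 33 of them at all 15 CpGs, and it had none in LL replicates 7 and 9 and LH replicates 6 and 8. HL replicate 3 and HH replicate 7 had values at only 6 of the 15 CpGs. No CpG value in the files had a total count under 100 as deposited, before the halving of even counts described below. Of the 15 CpGs of the 5′ UTR, 0 reached the study's own requirement of a value in 36 animals, against 10 of 10 in the coding exon. CpGs were kept here when at least 5 animals in each group had 10 reads or more, which left 293 CpGs at 22 loci.

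Near the centre of each amplicon the counts came in pairs. Methylated and total counts were even in every animal at coding CpGs 1 to 3 and at 5′ UTR CpGs 3 to 8, which lay within 13.5 and 27.5 bp of the amplicon centre, and their median totals (19134 to 19144 and 612 to 616 reads) were far above those of the other CpGs (9437 to 9570 and 307 to 313 reads). The 6 CpGs present in HL replicate 3 and HH replicate 7 were the 6 of the 5′ UTR with even counts. The median reads of these animals, 166 and 132, are therefore counts before halving. These counts were halved for the counting variances and the binomial intervals, which leaves the level of each CpG as it is. Pooled reads over a region and the quasi-binomial model used the counts as deposited. In both, the CpGs with even counts therefore had more weight than the others. Why the counts were even was not tested.

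The 2 regions of exon 1 lay at opposite ends of the methylation scale. The mean over CpGs was 94.5% ± 1.21 (SD, n = 39) in the coding exon and 0.911% ± 0.257 (SD, n = 35) in the 5′ UTR. Within an animal the coding exon exceeded the 5′ UTR by 93.6 points ± 1.26 (SD, n = 35), with a range of 90.5 to 95.4 points, in 35 of 35 animals (p = 1e-05, permutation test by sign flips, 2-sided, the smallest p that 100000 resamples can give). The plot of Irs1 exon 1 with its CpG levels shows the positions and both levels.

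**Figure D1:**
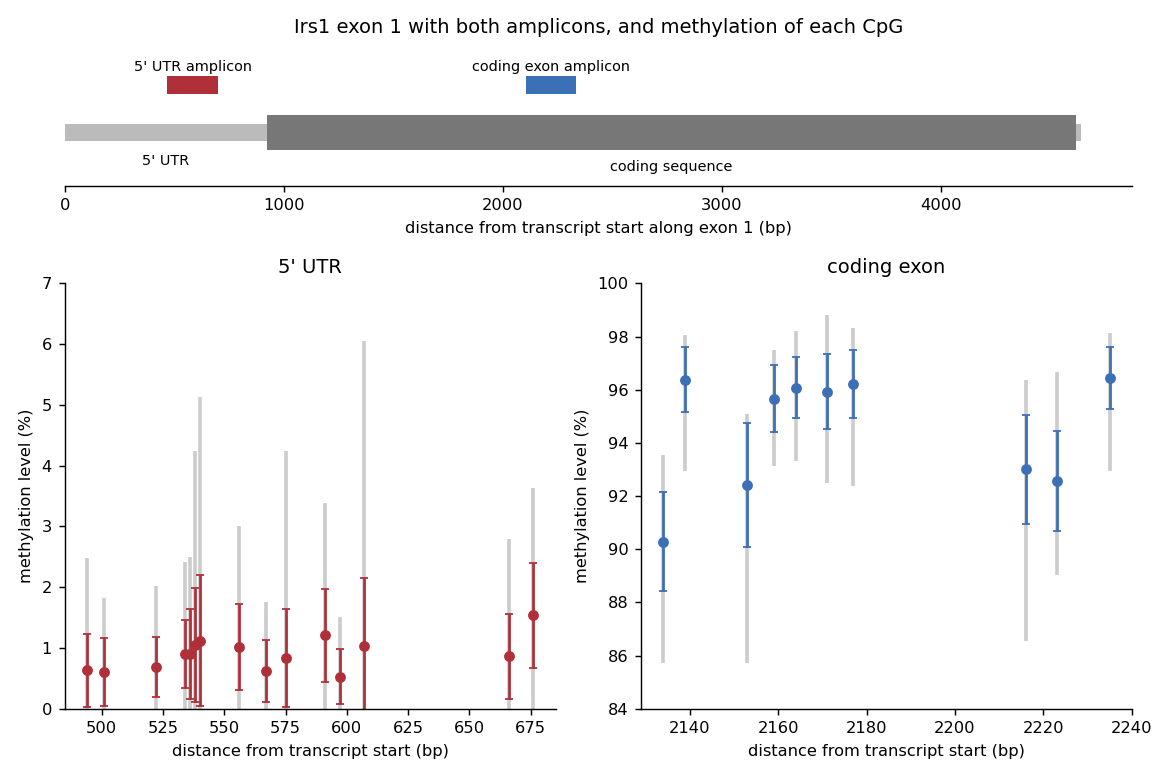
The top panel draws exon 1 of Irs1 to scale along the distance from the transcript start (bp), with the 5′ UTR and coding sequence in grey and both amplicons above. The lower panels give the methylation level (%) of each CpG as mean and SD over animals (points and bars) and lowest to highest animal (grey lines), and the axes differ: the 5′ UTR means lie between 0.530% and 1.54%, the coding means between 90.3% and 96.4%.

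The coding CpGs fell into a higher and a lower set. The means of 6 CpGs lay between 95.7% and 96.4%, and those of the other 4, CpGs 2, 3, 8 and 10, between 90.3% and 93.0%. The lower set averaged 92.1% ± 1.73 and the higher set 96.1% ± 0.998 (SD, n = 39). The mean of the lower set was below that of the higher set in 39 of 39 animals, by 4.06 points ± 1.15 (range 1.97 to 7.13), and in 31 animals every CpG of the lower set was below every CpG of the higher set. These sets were formed from the levels themselves, so the gap is a description. Codon positions are given for the cytosine on the gene strand, whereas the cytosine read was that of the same CpG on the plus strand. CpG 10, whose gene-strand cytosine is the second base of codon 404, had a mean of 90.3% ± 1.86 (lowest animal 85.7%, median 90.9%, highest 93.5%) and was the lowest of the 10 CpGs in 31 of 39 animals. CpG 1, whose gene-strand cytosine is the first base of codon 438, had a mean of 96.4% ± 1.17 (92.9%, 96.4% and 98.1%) and was the highest in 9 animals, and CpGs 4 and 9 were each the highest in 9 others.

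Neighbours a few bases apart could differ by more than the spread between animals. Of the 9 neighbouring pairs of coding CpGs, 5 differed (adjusted p = 4.6e-05 for each, from the smallest p that the sign-flip permutation test can give, adjusted over 23 neighbouring pairs of both regions). The largest step was between CpGs 9 and 10, which are 5 bp apart: CpG 10 was lower by 6.09 points, a difference of -6.09 ± 1.62 (SD), in 39 of 39 animals. Between CpGs 7 and 8, 6 bp apart, the level fell by 3.27 points ± 1.82, and between CpGs 8 and 9, 14 bp apart, it rose by 3.97 points ± 1.95, each in 39 of 39 animals. CpGs 4 to 7, which span 18 bp of this stretch, had no step past the threshold, the largest being -0.403 points between CpGs 6 and 7 (adjusted p = 0.0803, permutation test).

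The coding CpGs of an animal moved together. All 45 pairs of coding CpGs had a Pearson correlation above 0 across the 39 animals, with a median r of 0.551 and a range of 0.294 to 0.746. The points share a library, so these correlations are a description. The variance of the region mean between animals was 254 times the variance that counting reads would give. The lowest animal was HL replicate 8, with 91.4%, and the highest HH replicate 5, with 96.3%. Counting error was far smaller than this range: the pooled reads of these animals gave exact binomial 95% intervals of 91.2% to 91.6% and 96.2% to 96.5%. These and all other intervals on reads cover counting error only, since PCR copies of a molecule were not marked. Counts at the CpGs of a region come largely from the same reads but were taken as independent. Intervals on pooled reads and the counting variance of a region mean can therefore be too small.

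In the 5′ UTR the level was close to the least that its depth could resolve. CpG 4 had the lowest mean, 0.530% ± 0.449 (SD, n = 35, lowest animal 0, median 0.430%, highest 1.52%), and CpG 1 the highest, 1.54% ± 0.862 (n = 33, 0, 1.56% and 3.64%). The mean was below 1% at 9 of the 15 CpGs. Of 507 values, 90 were 0 (17.8%), and at the median depth of CpG 4, a count of 0 allows a level of up to 0.977%. The 4 adjacent CpGs 9 to 12 had similar means, between 0.900% and 1.12%. Of the 14 neighbouring pairs, 4 differed (adjusted p = 7.67e-05 for the step between CpGs 4 and 5, which was 0.679 points ± 0.875, and 0.00371 to 0.00388 for the rest, by the sign-flip permutation test), and no step exceeded 0.679 points.

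Unlike the coding CpGs, those of the 5′ UTR showed little common movement between animals. The median r between CpGs was 0.0244, and 60 of 105 pairs were above 0, with the same reservation that the points share a library. The variance of the region mean between animals was 1.93 times the counting variance, which again took the CpGs of a read as independent. For single CpGs that ratio ranged from 0.830 to 2.68 with a median of 1.28, against 31.0 to 68.8 in the coding exon. The lowest animal was LL replicate 10, with 0.537% (11 methylated of 2059 counts pooled over CpGs, exact binomial 95% interval 0.267% to 0.954%). The highest was HH replicate 7, with 1.52% (6 of 396 pooled counts, 0.558% to 3.27%), and these intervals overlapped.

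The effect of diet was examined in 4 pairwise comparisons, of which HL vs LL and HH vs LH compare maternal diets at a fixed post-weaning diet, and LH vs LL and HH vs HL compare post-weaning diets at a fixed maternal diet. Comparisons that share a group are not independent. Coding exon levels were alike in range in all groups. The lowest, median and highest animals had 91.8%, 94.8% and 96.0% in LL, 91.4%, 94.4% and 95.8% in HL, 91.7%, 94.9% and 95.8% in LH, and 92.3%, 94.6% and 96.3% in HH. Each group thus covered most of the range of every other.

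No diet difference in the coding exon mean was detectable. Means were 94.5% ± 1.32 (SD, n = 10) in LL, 94.2% ± 1.29 (n = 9) in HL, 94.7% ± 1.17 (n = 10) in LH and 94.5% ± 1.22 (n = 10) in HH. HL differed from LL by -0.232 points (95% interval -1.50 to 1.04, adjusted p = 0.953, exact permutation test). HH differed from LH by -0.193 points (-1.29 to 0.932, adjusted p = 0.882, by the study's 2-sample test, which was kept for comparisons with 10 animals in each group). LH differed from LL by 0.271 points (-0.903 to 1.43, adjusted p = 0.875, by the same test). HH differed from HL by 0.310 points (-0.898 to 1.53, adjusted p = 0.694, exact permutation test). The intervals, obtained by inverting the permutation test, leave room for a difference of about the SD between animals in either direction.

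The 5′ UTR mean was higher in HH than in HL animals, the 1 comparison of both regions that passed the adjusted threshold, and the means of LL, LH and HL were all below that of HH. The lowest, median and highest animals had 0.537%, 0.782% and 1.12% in LL, 0.546%, 0.804% and 1.13% in HL, 0.570%, 0.861% and 1.43% in LH, and 0.867%, 1.14% and 1.52% in HH. Group means were 0.789% ± 0.189 (SD, n = 8) in LL, 0.788% ± 0.180 (n = 9) in HL, 0.883% ± 0.273 (n = 8) in LH and 1.14% ± 0.216 (n = 10) in HH. HH and HL overlapped: 3 of 9 HL animals were above the lowest HH animal, and 5 of 10 HH animals were above the highest HL animal, HL replicate 6.

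**Figure D2:**
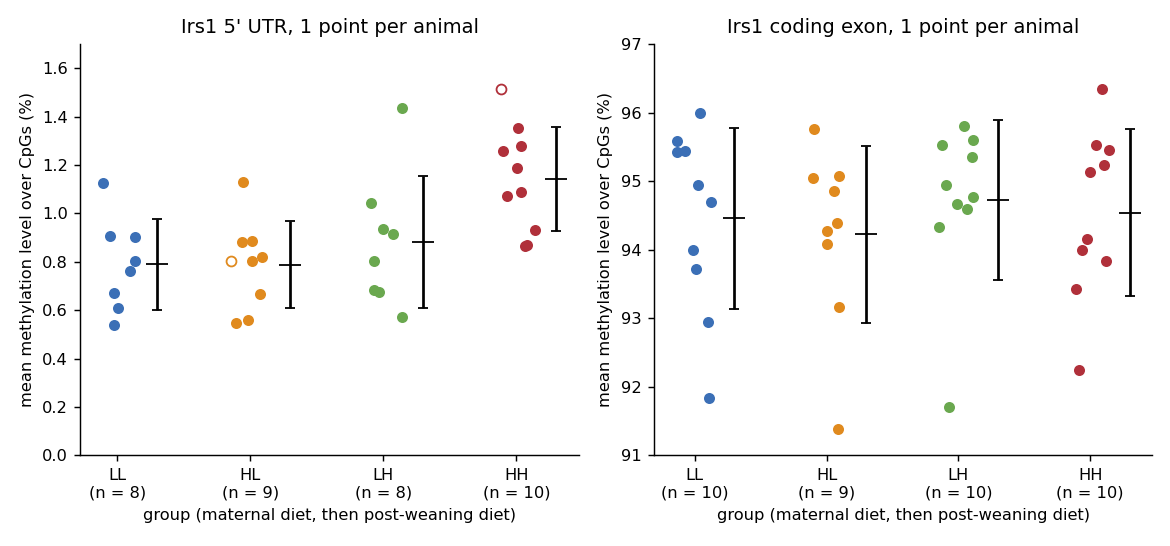
Mean methylation level over the CpGs of the 5′ UTR (left, %) and of the coding exon (right, %) by group, named by maternal and then post-weaning diet, with 1 point per animal and the group mean and SD in black. Open points are animals with 6 of the 15 CpGs. The y axis of the right panel does not start at 0; all 10 HH animals lie at or above 0.867% in the left panel, whereas the groups cover one another in the right panel.

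HH exceeded HL by 0.353 points at the 5′ UTR (95% interval 0.159 to 0.547, p = 0.00141, adjusted p = 0.0155 over 22 loci, exact permutation test, n = 10 and 9), with 10 of 10 HH animals above the HL median. The ratio of the means was 1.45. At the loci as a whole, 2 of 22 (9.09%) passed the adjusted threshold in this comparison and 4 (18.2%) the unadjusted one. The call did not hold under every processing, and pooled reads and the quasi-binomial model gave the CpGs with even counts more weight. It was lost with reads pooled over the region (0.312 points, adjusted p = 0.113, exact permutation test), and so it was in a quasi-binomial model of the reads (0.203 points, adjusted p = 0.347) and with p-values adjusted over all 4 comparisons together (adjusted p = 0.0619). Restricted to the animals with all 15 CpGs, which leaves out HL replicate 3 and HH replicate 7, the difference was 0.313 points (adjusted p = 0.0507, exact permutation test), while leaving out any single animal kept it past the threshold (adjusted p = 0.00603 to 0.0312).

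The other comparisons of the 5′ UTR mean did not pass. HH exceeded LH by 0.258 points (0.0135 to 0.502, p = 0.0404, adjusted p = 0.661, exact permutation test), with 10 of 10 HH animals above the LH median, and it was the only locus of 22 (4.55%) under 0.05 before adjustment, with none (0%) after it. LH differed from LL by 0.0940 points (-0.151 to 0.347, adjusted p = 0.773, exact permutation test), where 2 loci of 22 (9.09%) passed before and none (0%) after adjustment. HL and LL were almost equal, with a difference of -4.91e-04 points (-0.192 to 0.192, adjusted p = 0.990, exact permutation test), and the shares of loci that passed were again 9.09% and 0%.

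In linear models of all 4 groups the post-weaning HF diet went with a level 0.234 points higher at the 5′ UTR (F test, p = 0.00399, adjusted p = 0.0439, n = 35). Animals on the HF diet had 1.03% ± 0.270 (SD, n = 18) and those on the LF diet 0.789% ± 0.178 (n = 17). The post-weaning term passed at 2 of 22 loci (9.09%) after and 3 (13.6%) before adjustment. This call was lost when p-values came from 10000 permutations of residuals (adjusted p = 0.0506), when reads were pooled (0.213 points, adjusted p = 0.0999) and when only animals with all 15 CpGs entered (0.207 points, adjusted p = 0.109). It was also lost on leaving out any 1 of 22 of the 35 animals with a 5′ UTR value (LL replicates 1, 6, 8 and 10, HL replicates 2, 3, 5 and 7 to 10, LH replicates 2, 4, 7 and 10, and HH replicates 2, 3, 4, 6, 7, 8 and 10), with 0.204 to 0.237 points and an adjusted p of 0.0520 to 0.0835. The maternal term at the 5′ UTR was 0.132 points (adjusted p = 0.398, with 0% of loci passing after and 9.09% before adjustment). The interaction, the amount by which the maternal effect differed between both post-weaning diets, was 0.259 points (p = 0.0878, adjusted p = 0.483, with 0% after and 4.55% before adjustment). The interaction test thus did not separate the post-weaning effect in offspring of HF dams from that in offspring of LF dams. In the coding exon the post-weaning, maternal and interaction terms were 0.290, -0.212 and 0.0386 points (adjusted p = 0.792, 0.865 and 0.998).

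The median number of reads per CpG at the 5′ UTR was 301.5 in LL, 304 in HL, 300 in LH and 337.5 in HH, so HH had the highest median depth as well as the highest level, and the part of depth in the difference between groups was not tested. Across the 35 animals the level and the log10 of the reads gave r = 0.0834 and rho = 0.150 (permutation p = 0.633 and 0.389, adjusted over 6 relations 0.633 and 0.467), and r was 0.110 without the 2 animals farthest from the median depth. In the coding exon r was 0.236 and rho 0.194 over 39 animals (permutation p = 0.150 and 0.237, adjusted p = 0.237 and 0.356), with r = 0.263 without the 2 farthest animals.

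**Figure D3:**
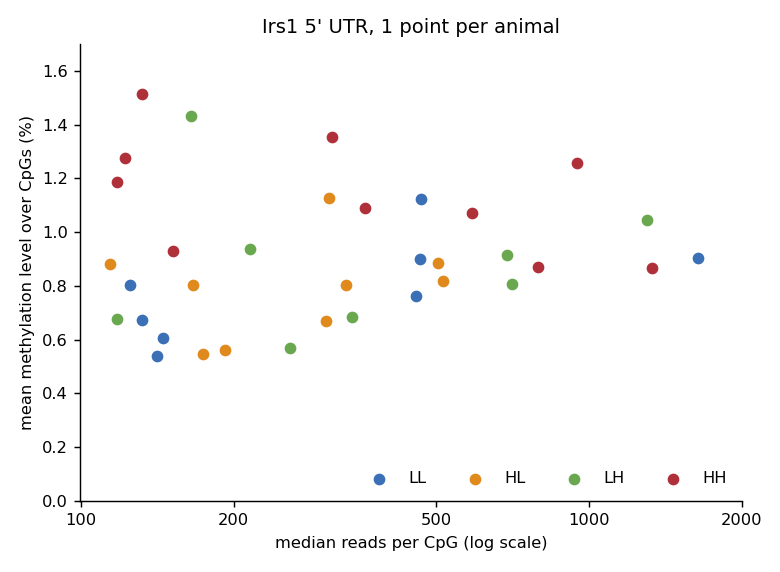
Mean methylation level over the CpGs of the 5′ UTR (%) against the median reads per CpG (log scale), with 1 point per animal coloured by group. HH animals with few reads and HH animals with many reads both lie at 0.867% or above. The lowest HH animals, replicates 1 and 9, had 1333 and 794 reads, and HH replicate 4, with 948 reads, had 1.26%. HH replicates 6, 7 and 8, with 118, 132 and 122 reads, had 1.19%, 1.52% and 1.28%. HH replicate 5, with 152 reads, had 0.930%. No HL animal exceeded 516 reads. The group medians of depth lie between 300 and 337.5 reads.

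A cytosine left unconverted would be read as methylated at any locus, so the 5′ UTR was set beside the other weakly methylated loci. Apart from the 5′ UTR of Irs1, 11 loci had means under 2%, between 0.687% and 1.66%. The median deviation of an animal at these loci differed between HH and HL by 0.0326 points (p = 0.220, exact permutation test) and between HH and LH by 0.0478 points (p = 0.160, permutation test), against 0.353 and 0.258 points at Irs1. The 5′ UTR level and this deviation gave r = 0.366 and rho = 0.327 across 35 animals (permutation p = 0.0314 and 0.0565, adjusted over 6 relations 0.188 and 0.339). Without the 2 animals farthest from the median r was 0.300, and after group means were removed r was 0.244. With the deviation as a covariate in a linear model, the difference between HH and HL was 0.348 points (adjusted p = 0.0315), and the post-weaning term was 0.217 points (adjusted p = 0.0757). No unmethylated control DNA was among the samples, so a true level near 1% and incomplete conversion cannot be told apart.

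Animals were also numbered in the labels, in runs of nearby numbers, and what a run stands for is not given. Within the 3 runs that held both HH and HL animals with a 5′ UTR value, 12 animals in all, the difference was 0.256 points (p = 0.0375, adjusted p = 0.825, exact permutation within runs). The smallest p this design allows is 0.0125, with which a single locus cannot pass after adjustment over 22 loci, so the adjusted value says nothing about stability. In the coding exon the same comparison gave 0.945 points (p = 0.338, exact permutation within runs), against 0.310 points over all animals, and neither passed the threshold. Within runs LH and LL differed by 0.188 points at the 5′ UTR (p = 0.467) and by 0.503 points in the coding exon (p = 0.460), by exact permutation.

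At single CpGs, 0 of the 25 Irs1 CpGs passed the adjusted threshold in any of the 4 comparisons by the study's 2-sample test (10 animals in each group) or exact permutation, and the Wilcoxon and quasi-binomial tests also gave 0. This was the count for all CpGs as well, 0 of 293 (0%) in every comparison. Before adjustment, HL vs LL and HH vs LH had 0 Irs1 CpGs under 0.05, where 12.6% and 2.39% of all CpGs were. In LH vs LL, 7.85% of all CpGs were under 0.05, 4.78% with LH higher, and Irs1 had 1 of 25, higher in LH. In HH vs HL the shares were 13.0% and, with HH higher, 10.9%, and Irs1 had 3 of 25, all in the 5′ UTR and higher in HH.

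**Figure D4:**
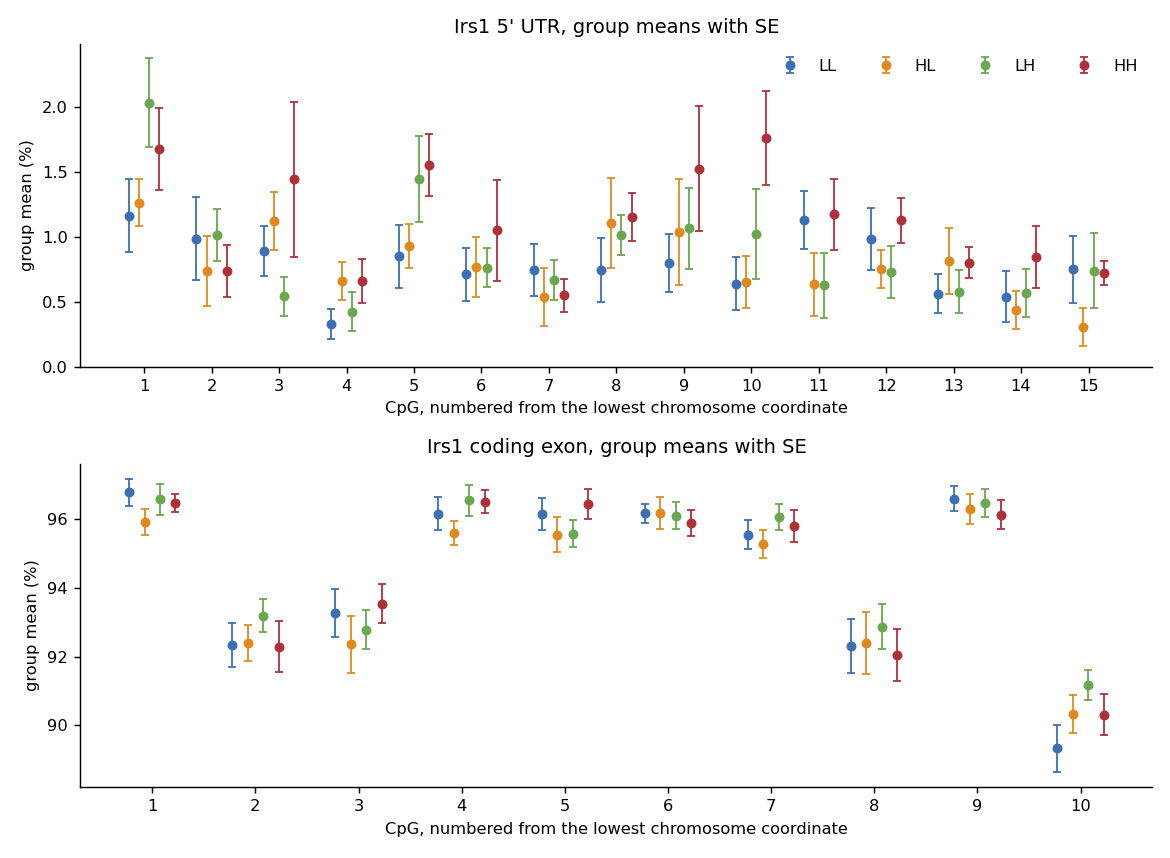
Mean methylation level (%) of each CpG in each of the 4 groups, with bars of 1 SE over animals, for the 5′ UTR (top) and the coding exon (bottom, axis not from 0). At 5′ UTR CpG 10 HH has a mean of 1.77% and HL of 0.654%, and at coding CpG 10 LH has 91.2% and LL 89.3%.

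The coding CpG with the smallest unadjusted p was CpG 10 in LH vs LL. LL animals had 85.7%, 89.6% and 91.9% as lowest, median and highest value, and LH animals 88.5%, 91.2% and 93.5%. The groups overlapped, with means of 89.3% ± 2.19 and 91.2% ± 1.37 (SD, n = 10 each), and 9 of 10 LH animals above the LL median. LH was thus higher by 1.83 points, with p = 0.0377 before and 0.613 after adjustment (the study's 2-sample test, n = 10 in each group). In the remaining comparisons the coding CpG with the smallest p was CpG 1 in HL vs LL (-0.857 points, p = 0.135, adjusted p = 0.650, exact permutation), CpG 5 in HH vs LH (0.867 points, adjusted p = 0.859) and CpG 4 in HH vs HL (0.902 points, p = 0.0790, adjusted p = 0.502, exact permutation). Coding CpGs were split in direction, with 4 higher and 6 lower in HL vs LL, 2 and 8 in HH vs LH, and 5 and 5 in both post-weaning comparisons.

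In the 5′ UTR the CpG with the smallest p was CpG 10 in HH vs HL. HL animals had 0, 0.473% and 1.81% as lowest, median and highest value, and HH animals 0.745%, 1.39% and 4.24%. The groups overlapped, with means of 0.654% ± 0.569 (SD, n = 8) and 1.77% ± 1.09 (n = 9). The difference was 1.11 points (p = 0.0103, adjusted p = 0.281, exact permutation test), with 9 of 9 HH animals above the HL median. CpG 10 is the second cytosine of the run of 4 adjacent CpGs, and CpG 12, in the same run, had the smallest p in HH vs LH (0.397 points, p = 0.153, adjusted p = 0.859, exact permutation). In LH vs LL it was CpG 1 (0.871 points, p = 0.0715, adjusted p = 0.717, exact permutation), and in HL vs LL CpG 4 (0.330 points, p = 0.103, adjusted p = 0.594, exact permutation).

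The higher 5′ UTR level in HH was spread over CpGs. HH exceeded HL at 12 of 15 CpGs, with differences from -0.0129 to 1.11 points and a median of 0.376 points, and it exceeded LH at 11 of 15, with a median of 0.235 points. LH exceeded LL at 10 of 15 (median 0.0274 points) and HL exceeded LL at 9 of 15 (median 0.0558 points). CpGs of an animal share reads, so these counts are not independent. With the 9 CpGs whose counts were not all even, the HH minus HL difference was 0.416 points (adjusted p = 0.0145, exact permutation test).

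The gap between coding exon and 5′ UTR did not change detectably with diet. It was 93.9 points in LL and LH and 93.4 points in HL and HH, and the 4 comparisons gave an adjusted p of 0.966 each by exact permutation, with differences of -0.437, -0.510, 0.0299 and -0.0431 points for HL vs LL, HH vs LH, LH vs LL and HH vs HL. Across 35 animals the levels of both regions gave r = -0.190 and rho = -0.208 (permutation p = 0.275 and 0.231, adjusted over 6 relations 0.330 and 0.356). Without the 2 animals farthest from the median r was -0.248, and after group means were removed it was -0.260.

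Among the 22 loci, the coding exon of Irs1 had the highest mean level and the 5′ UTR stood at place 13. The locus below the coding exon was Nr1i2, the pregnane X receptor gene, with 94.3% ± 0.509 (SD, n = 38), and it did not differ from the coding exon beyond the spread (0.236 points ± 1.19, adjusted p = 0.693, permutation test by sign flips). The locus above the 5′ UTR was Ebp, a sterol isomerase gene, whose mean of 1.30% rested on 1 animal: HH replicate 1 had 20.8% there and no other animal exceeded 1.59%. The 5′ UTR differed from Ebp by -0.440 points (adjusted p = 0.991, permutation test) with that animal and by 0.133 points without it. Without it the locus above was Nr1h3, the liver X receptor alpha gene, with 1.65% ± 0.420, and the 5′ UTR was lower by a difference of -0.712 points ± 0.520, lower in 31 of 34 animals (adjusted p = 2e-05, permutation test). The locus below was Rxra, the retinoid X receptor alpha gene, with 0.881% ± 0.329, from which the 5′ UTR differed by 0.0327 points (adjusted p = 0.971, permutation test).

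**Figure D5:**
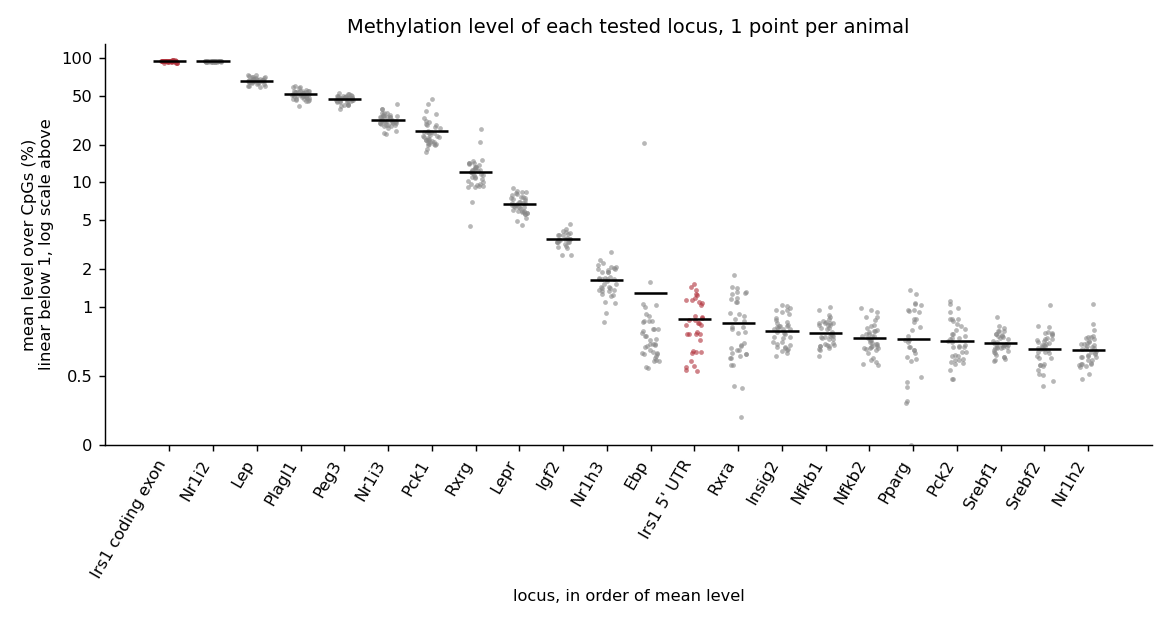
Methylation level of each of the 22 tested loci (mean over CpGs, %, axis linear below 1 and on a log scale above), with 1 point per animal, black bars at the mean and both Irs1 regions in red. The coding exon is at 94.5% and the 5′ UTR at 0.911%, and the single point at 20.8% is HH replicate 1 at Ebp.

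The loci whose levels were most like those of Irs1 across animals were found by Pearson correlation with 21 other loci, and none of the 6 named here passed a permutation test adjusted over the 21. For the coding exon they were Insig2 (r = 0.302, rho = 0.305, n = 38), Nr1i2 (r = 0.284, rho = 0.344, n = 38) and Pck1 (r = 0.193, rho = 0.209, n = 39), with an adjusted permutation p of 0.432, 0.432 and 0.657. Without the 2 animals farthest from the median, r was 0.241, 0.345 and 0.154. For the 5′ UTR they were Lepr (r = 0.434, rho = 0.454, n = 35), Nr1i3 (r = 0.407, rho = 0.425, n = 35) and Insig2 (r = 0.356, rho = 0.339, n = 34), with an adjusted permutation p of 0.192, 0.192 and 0.267. Without the 2 farthest animals r was 0.349, 0.357 and 0.228, so each of these relations rested in part on those animals. Values of an animal share a library, so these correlations describe the samples. Group means were not removed, so differences between groups that both loci share can enter r.

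Of the other measured loci, 7 belong to insulin or leptin signalling or to targets of insulin in liver. They were Igf2, a growth factor gene, the leptin gene Lep, the leptin receptor gene Lepr, the phosphoenolpyruvate carboxykinase genes Pck1 and Pck2, the lipogenic regulator gene Srebf1, and Insig2, whose product holds back the processing of SREBP proteins. Of their 101 CpGs, 0 passed the adjusted threshold in any comparison. Before adjustment, 2 were higher and 7 lower in HL than in LL, where 3.07% of all CpGs were higher and 9.56% lower. In HH against LH, 3 were higher and 1 lower (all CpGs 1.37% and 1.02%), and in LH against LL, 7 were higher and 2 lower (4.78% and 3.07%). In HH against HL, 13 of the 101 were higher and 2 lower, against 10.9% and 2.05% of all CpGs, so their share was near that of all CpGs. Of the 13, Lepr held 10 of its 19 CpGs and Pck1 held 3 of its 5. In the same comparison the 5′ UTR of Irs1 had 3 of 15 higher and none lower, to be read against the same 10.9% and 2.05%.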

How the data were processed

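The authors treated liver DNA with bisulfite, amplified 22 loci, sequenced the barcoded pools on 1 lane of HiSeq and called methylation with Bismark (version not given in the sources used here; build mm9 per the labels). They deposited a table of counts (methylated and total reads at each CpG in each animal) and a table of the methylated fraction. The deposited fraction equalled the ratio of counts within 5e-16 over 11071 values. Of the columns with values per animal, 0 were left unused.

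Methylation was computed as 100 times methylated over all reads, and region means over CpGs. Following the study's pairwise design, groups were compared by Student's t-test if each had 10 values and otherwise by exact permutation (2-sided, double the smaller tail), with Benjamini-Hochberg adjustment over 293 CpGs or 22 loci at 0.05. Linear models tested diet terms. The study's filter would have dropped the 5′ UTR, so at least 5 animals per group with 10 reads were required. Scripts (Python 3.11.15, numpy 2.4.6, scipy 1.17.1) were tested on simulated data. The simulation shifted single CpGs of HL animals by 10 points, so it does not cover detection of differences as small as those at the 5′ UTR. CpGs with values were those of lowest and highest mean per region and of smallest p per comparison. Members, lists and tests were chosen with earlier results of these data known. Alternatives were other tests, coverage minima of 500 and 1000 reads, the study's filter, pooled reads, omitted animals and within-run differences. The animals with all CpGs, the CpGs without even counts, the covariate, the omission of single animals from the post-weaning model and Ebp without HH replicate 1 were added after seeing the data.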

Additional observations from a re-analysis of the deposited data

Results flagged for a closer look

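In groups of 4 to 10 animals, the highest or lowest value stood far from the rest (by Dixon's ratio of the gap to the range) in 8 of 48 groups examined. Chance flags about 1 in 20, or 2.4 of 48, and several of the 8 share an animal. LH replicate 7 had the lowest coding exon mean of its group, 91.7%, with 94.3% next. It was also lowest at coding CpG 1 (92.9%, 5232 of 5629 reads, exact binomial 95% interval 92.2% to 93.6%, next 96.0%) and at coding CpG 5 (92.5%, 5198 of 5621 reads, 91.8% to 93.2%). LL replicate 7 had 92.4% at coding CpG 4 (6810 of 7371 reads, 91.8% to 93.0%), with 95.6% next, and no value at the 5′ UTR.

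In the 5′ UTR, LL replicate 5 had a median of 1640 reads, with 467 next. CpG 10 was 3.09% in LH replicate 10 (5 of 162 reads, 1.01% to 7.06%) and 4.24% in HH replicate 6 (5 of 118 reads, 1.39% to 9.61%, next 2.50%). CpG 12 was 2.41% in HH replicate 3 (14 of 580 reads, 1.33% to 4.02%, next 1.38%).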

How the results depend on the processing

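Besides the omission of animals, 114 values were computed under alternatives, of which 104 kept their direction and their side of the threshold, 9 lost the call and 1 changed sign. Many of the 104 could not change. The coverage minima and the study's filter left all coding differences as they were, and their CpG counts covered only the 10 coding CpGs. Exact permutation everywhere repeated the main test wherever a group had under 10 values. The number kept is therefore no measure of stability. All 9 lost calls concerned the higher 5′ UTR level in HH or on the post-weaning HF diet. HH minus HL was 0.203 points in the quasi-binomial model, 0.353 with adjustment over all 4 comparisons, 0.312 with pooled reads, 0.256 within runs and 0.313 in animals with all 15 CpGs. The post-weaning term was 0.234 points with permuted residuals, 0.213 with pooled reads, 0.207 in animals with all 15 CpGs and 0.217 with the other low loci as a covariate. Adjusted p was 0.0507 to 0.825 for the former and 0.0506 to 0.109 for the latter. Within runs the smallest p, 0.0125, could not pass after adjustment, so that loss says nothing about stability. The other 4 alternatives for HH minus HL kept the call (adjusted p 0.0145 to 0.0315). Exact permutation everywhere is among these 4, but it is the main test itself for these groups and could not differ. HL minus LL at the 5′ UTR turned from -4.91e-04 to 0.0404 points with pooled reads. At 500 and 1000 reads and under the study's filter the 5′ UTR gave no value. The causes were not tested.

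Leaving out each animal in turn, the 5′ UTR differences ranged from -0.0429 to 0.0475 points (HL vs LL), 0.214 to 0.337 (HH vs LH), 0.0154 to 0.142 (LH vs LL) and 0.311 to 0.395 (HH vs HL), and the post-weaning term from 0.204 to 0.260. Coding differences ranged from -0.523 to 0.123, -0.529 to 0.0604, -0.0198 to 0.607 and -0.0451 to 0.564 points in that order, and changed sign without HL replicate 8, HH replicate 3, LL replicate 7 and HL replicate 8. HL minus LL at the 5′ UTR changed sign without any 1 of 7 animals. Levels ranged from 94.4% to 94.6% and 0.893% to 0.922%, and their difference from 93.6 to 93.7 points. Without HH replicate 1 the 5′ UTR minus Ebp was 0.133 points.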
